A study of Mus musculus with 9 samples.

Results

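The transcripts described here come from the mitochondrial genome, and their genes were chosen as all rows of the count table whose mouse symbol starts with mt-. There were 35 such genes among 49315 in the table, 13 that encode proteins and 22 that encode transfer RNAs (tRNAs). The annotation lists 37 genes with this prefix, and the remaining 2, the ribosomal RNAs mt-Rnr1 and mt-Rnr2, are not analysed here. A total of 33 of the 35 genes had at least 1 count, and 32 had enough counts to be tested.

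RNA was sequenced from whole brains of wild-type (WT) C57BL/6J male mice, 5 young (3 months by the sample labels; the study's methods also allow a slightly higher age) and 4 old (33 months). The labels of the groups differ by age alone, and an animal is named here by its age and replicate number. The study's methods name a vendor and internal breeding as sources of the mice, and which animal came from which is not given in the sources used here. PolyA-selected RNA with ERCC spike-ins was used for the libraries, which held between 14229259 (young mouse 3) and 21150439 (young mouse 4) counts on genes. Levels are given as CPM, the count of a gene relative to the library total, with libraries scaled by TMM factors.

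The mitochondrial genome is a small circular DNA that mitochondria inherit from the mother and keep in many copies per cell. Its protein genes encode core subunits of the respiratory chain, which pumps protons and passes electrons to oxygen, and of the ATP synthase that uses the proton gradient. Its tRNAs and ribosomal RNAs serve the translation of these few mRNAs inside the organelle, while all other mitochondrial proteins are encoded in the nucleus. Both strands are transcribed as long RNAs from promoters in the control region, and tRNAs that lie between the mRNAs are cut out to release them. Neurons depend heavily on this system for the ATP used by ion pumps and synapses. In a whole brain, fewer cells of a type and less RNA per cell cannot be told apart.

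Pieces of mitochondrial DNA also sit in the nuclear chromosomes, and the authors counted only reads that mapped to a single place. The sequences of the genes were therefore compared first with all annotated nuclear transcripts (GENCODE M21, GRCm38). Pseudogenes on chromosome 1 stood out. A row of 7 of them, chr1:24611535-24616197 on the minus strand, matched chrM:6390-11042 at 99.7% to 100% identity. This stretch of 4653 bases begins inside mt-Co1 and ends inside mt-Nd4, and it holds 11 of the 35 genes wholly and 2 in part. The first 60 bases of mt-Co3 (chrM:8607-8666, plus strand, coding exon) and of its copy Gm28437 (chr1:24613912-24613971, minus strand, pseudogene exon) are shown because not a single base separates them, which would be marked by a capital.
mt-Co3: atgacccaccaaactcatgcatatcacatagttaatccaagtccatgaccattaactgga
Gm28437: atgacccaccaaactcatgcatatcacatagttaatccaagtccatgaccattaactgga

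Outside this stretch the nuclear copies matched less closely. For mt-Nd2 the closest one was Gm13339 on chromosome 2, at 96.7% identity over 510 bases of the gene. The piece below covers chrM:4514-4573 of mt-Nd2 (plus strand, coding exon) and chr2:22590402-22590461 of the copy (minus strand), with the 2 differing bases in capitals.
mt-Nd2: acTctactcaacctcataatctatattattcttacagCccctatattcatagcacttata
Gm13339: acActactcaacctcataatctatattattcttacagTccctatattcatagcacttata

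The copy of mt-Cytb on chromosome 4, Gm11410, had 92.9% identity over 1142 bases. In chrM:14745-14804 (plus strand, coding exon) and chr4:80004589-80004648 (plus strand) 5 bases differed, again in capitals.
mt-Cytb: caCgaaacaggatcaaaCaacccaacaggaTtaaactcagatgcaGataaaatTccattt
Gm11410: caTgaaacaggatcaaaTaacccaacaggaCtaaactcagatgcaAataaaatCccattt

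The overlap with nuclear transcripts was measured as the share of each gene's 100-base windows that occur letter for letter in a nuclear transcript. It was 99.9% for mt-Co3, 99.5% for mt-Co2 and mt-Atp6, 98.5% for mt-Nd4l and 97.6% for mt-Nd3. For the 2 genes at the edges of the copied stretch it was 60.8% (mt-Nd4) and 30.8% (mt-Co1). It was 3.2% for mt-Nd2 and 0% for mt-Nd1, mt-Nd5, mt-Nd6, mt-Cytb and mt-Atp8. Although mt-Atp8 and the tRNAs of the stretch lie between the matched genes, no annotated nuclear transcript covers them, and the chromosome sequence between the pseudogenes was not analysed here.

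Protein genes inside the copied stretch had far lower levels than protein genes outside it. Per kilobase of gene length, the 5 protein genes wholly outside had a mean over the 9 mice of 1960 CPM per kb (mt-Nd5) to 4898 CPM per kb (mt-Cytb). The 6 protein genes wholly inside had 6.72 CPM per kb (mt-Atp6) to 77.9 CPM per kb (mt-Nd3). The highest level among the 35 genes belonged to mt-Co1 at 7738 CPM per kb, of which only the end lies in the stretch, and mt-Nd4 had 1656 CPM per kb. With reads that map to a single place counted alone, these values describe the reads that could be placed and not the amounts of RNA. How many reads were set aside because they matched a copy was not tested.

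**Figure D1:**
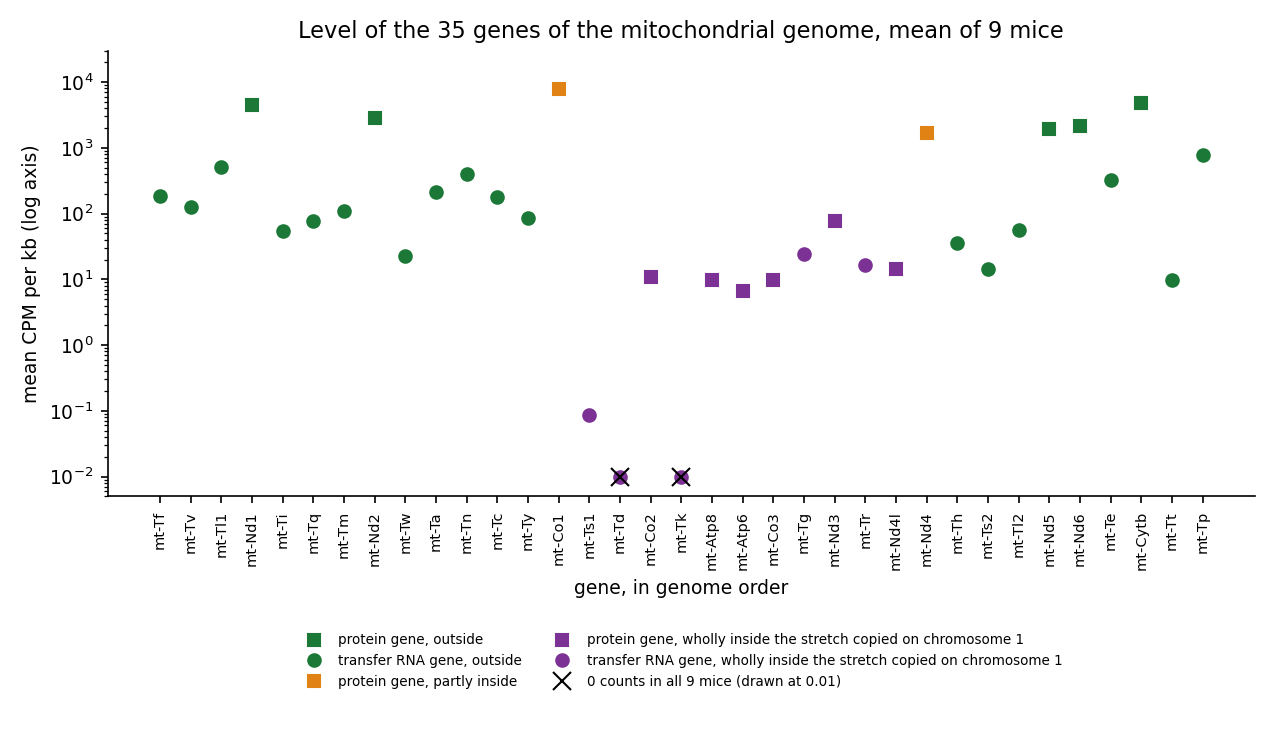
Mean level over the 9 mice (CPM per kb, log axis) of the 35 genes in genome order. Squares are protein genes and circles tRNA genes, coloured by whether they lie outside, partly inside or wholly inside the stretch copied on chromosome 1, and crosses mark the 2 genes with 0 counts. The 6 protein genes inside the copied stretch sit at 77.9 CPM per kb or less, below every protein gene outside it.

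The tRNA genes were measured far below the mRNAs outside the stretch, with 9.67 (mt-Tt) to 771 (mt-Tp) CPM per kb for the 17 outside it. Mature transfer RNAs are short and carry no poly(A) tail, and the libraries were polyA-selected. Of the 5 inside the stretch, mt-Td and mt-Tk had 0 counts in all mice, which allows up to 0.142 to 0.211 CPM per mouse (3 counts of the library, counting error only). A single count in old mouse 1 was found for mt-Ts1. The other 2, mt-Tg and mt-Tr, had 24.6 and 16.5 CPM per kb.

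Together the 35 genes took a smaller share of the libraries in old mice. The share of all gene counts was 3.37%, 3.22%, 3.35%, 3.34% and 3.36% in young mice 1 to 5 and 2.97%, 2.88%, 3.11% and 3.23% in old mice 1, 3, 4 and 5. Young mice averaged 3.33% ± 0.0614 (SD, n = 5) and old mice 3.05% ± 0.153 (SD, n = 4). The ages overlapped through a single pair, young mouse 2 below old mouse 5, and the difference of the means was -0.279 percentage points. This is a sum over the genes and carries no test. Nearly all of the share came from 7 genes, mt-Nd1, mt-Nd2, mt-Co1, mt-Nd4, mt-Nd5, mt-Nd6 and mt-Cytb, which held 99.1% to 99.2% of the mitochondrial counts in each library. The tRNA genes held 0.0226% ± 0.00147 (SD, n = 5) of the counts in young and 0.0218% ± 0.00121 (SD, n = 4) in old mice.

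**Figure D2:**
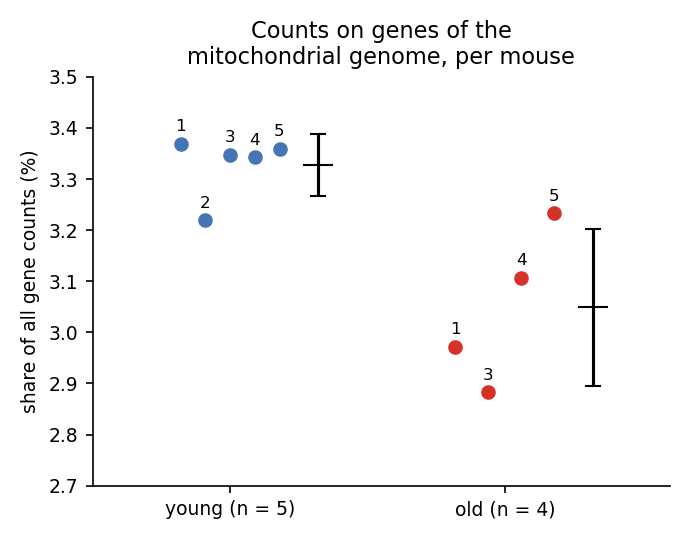
Share of all gene counts on the 35 genes of the mitochondrial genome in each mouse, in percent. The axis does not start at 0. Points are mice with their replicate numbers, and bars give the mean ± SD of 5 young and 4 old mice. The young mice lie between 3.22% and 3.37% and the old mice between 2.88% and 3.23%.

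Single genes were tested for a difference between the ages by the quasi-likelihood method of edgeR, in a fit over 18492 genes, and a gene with a Benjamini-Hochberg adjusted p under 0.05 is said to have fallen or risen. Of the 32 mitochondrial genes tested, 5 fell and 0 rose, beside 4.83% of all genes that fell and 6.2% that rose. The 5 were mt-Nd1, mt-Nd2, mt-Nd4, mt-Cytb and mt-Co3, all of them protein genes annotated on the plus strand. An unadjusted p under 0.05 was found for 14 genes, 13 of them lower in old mice, beside 26% of all genes in either direction and 12.4% lower. DESeq2's Wald test called 6 genes, again with 0 higher, beside 987 of all genes called lower and 1111 higher. None of the 5 passed the fold threshold of 0.58 on the log2 scale, beside 2.68% of all genes that were called and passed it. The median log2 fold change was -0.17 over the 32 genes and -9.2e-05 over all genes, and 26 of the 32 were below 0. In 7 genes every old mouse was below every young mouse, which held for 6.08% of all genes. Without old mouse 1, edgeR called mt-Nd1 and mt-Nd2 alone (2 of 32) and the median was -0.09. In that fit 598 of all genes were called lower, beside 893 with all mice. On the authors' TPM, limma called 0 of the 5 genes, although their log2 fold changes with a pseudocount of 1 were further from 0 (-0.35 for mt-Nd1, -0.50 for mt-Nd2, -0.34 for mt-Nd4, -0.33 for mt-Cytb and -0.51 for mt-Co3, where the median of all genes was -0.14). It called 6 tRNA genes, all lower in old mice, beside 287 of all 18492 genes called lower with a pseudocount of 1.

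Complex I, the NADH dehydrogenase that feeds electrons into the chain, has 7 mitochondrial subunits, and 3 of them fell. The lowest p of all 32 genes belonged to mt-Nd2. Its level was 3300, 3073, 3214, 3490 and 3330 CPM in the young animals 1 to 5 and 2374, 2427, 2793 and 2819 CPM in the old animals 1, 3, 4 and 5. Every old mouse lay below every young one, with old mice 1 and 3 lowest. This gave a log2 fold change of -0.33 ± 0.057 (SE), a decrease by 20.7%, at an adjusted p of 0.0025 (edgeR).

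The protein gene before it in the direction of transcription, mt-Nd1, fell as well. Its level was 4713, 4371, 4490, 4500 and 4694 CPM in the young mice and 3889, 3860, 4084 and 4203 CPM in the old mice. Again the ages did not overlap. The log2 fold change was -0.18 ± 0.040 (SE), a decrease by 11.96%, at an adjusted p of 0.0094 (edgeR).

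The third subunit to fall was mt-Nd4, at 2353, 2270, 2406, 2508 and 2484 CPM in the young and 2037, 2001, 2198 and 2280 CPM in the old animals. Here the highest old mouse, 5, passed the lowest young mouse, 2. It had a log2 fold change of -0.18 ± 0.046 (SE) at an adjusted p of 0.026 (edgeR). Without young mouse 4 or 5 or old mouse 1 or 3 the adjusted p was 0.055, 0.075, 0.080 and 0.077. Only the part of this gene beyond its first 876 bases lies outside the copied stretch.

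The genes mt-Nd5 and mt-Nd6, further along the genome, were not called and their values differed little between the ages. For mt-Nd5 the young mice had 3576, 3526, 3444, 3863 and 3543 CPM and the old mice 3388, 3339, 3597 and 3899 CPM. In log2 terms the change was -0.01, with a 95% interval from -0.11 to 0.08 (adjusted p = 0.89, edgeR). Old mouse 5 and young mouse 4 were the highest of all mice. For mt-Nd6, the only protein gene of the light-strand transcript, the young mice had 1113, 1088, 1019, 1234 and 1104 CPM and the old mice 1046, 1027, 1153 and 1219 CPM, and the means of 1112 and 1111 CPM gave an interval of the log2 fold change from -0.12 to 0.12. The ages overlapped throughout.

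The ends of mt-Nd5 and mt-Nd6 face each other on opposite strands and share 14 bases. They are printed from chrM:13526-13565 (mt-Nd5, plus strand) and chrM:13552-13591 (mt-Nd6, minus strand), with the shared bases in capitals, which are reverse complements of each other.
mt-Nd5: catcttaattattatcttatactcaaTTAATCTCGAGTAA
mt-Nd6: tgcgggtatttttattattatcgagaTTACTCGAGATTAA
The study's methods state strand-specific counting for strand-specific libraries only, and the kind of these libraries is not given in the sources used here. Without strand, reads of mt-Nd6 and of the opposite strand at its place cannot be told apart.

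The remaining complex I genes, mt-Nd3 and mt-Nd4l, lie wholly inside the copied stretch and were not called. For mt-Nd3 the log2 fold change was -0.01 (27.1 ± 2.24 CPM in the young and 27.1 ± 1.82 CPM in the old animals, SD, n = 5 and 4). For mt-Nd4l it was -0.34 (4.66 ± 0.667 and 3.66 ± 0.493 CPM, adjusted p = 0.14, edgeR).

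Complex III, which hands electrons from ubiquinol to cytochrome c, has the single mitochondrial subunit mt-Cytb, and it fell. Its level was 5908, 5687, 5834, 6027 and 5952 CPM in the young and 5138, 4951, 5293 and 5638 CPM in the old animals. Old mouse 5 came close to young mouse 2 without reaching it. The log2 fold change was -0.16 ± 0.041 (SE), a decrease by 10.7%, at an adjusted p of 0.022 (edgeR). Without young mouse 1 or 5 or old mouse 1 or 3 the adjusted p was 0.055, 0.060, 0.060 and 0.060.

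Complex IV, the cytochrome c oxidase that reduces oxygen, has 3 mitochondrial subunits. The gene with the most placed reads per kilobase, mt-Co1, was lower in the old mice by a small amount that missed the threshold. It had 12309, 12174, 12063, 12226 and 12412 CPM in the young and 11445, 11188, 11728 and 12058 CPM in the old animals. All old mice lay below all young mice, the closest pair being old mouse 5 and young mouse 3. The log2 fold change was -0.08 ± 0.035 (SE) at an adjusted p of 0.18 (edgeR).

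The subunit mt-Co3 had the lowest estimate among the 5 genes, on few counts. Its level was 8.68, 8.46, 9.07, 8.12 and 8.71 CPM in the young and 6.16, 6.91, 7.39 and 6.28 CPM in the old animals. These rest on 98 to 168 counts per mouse, and the ages did not overlap. On the log2 scale the change was -0.36 ± 0.089 (SE) at an adjusted p of 0.018 (edgeR), of 0.058 without old mouse 1 and of 0.055 without old mouse 5. Because almost every window of mt-Co3 also occurs in Gm28437, the pair printed first, its value is uncertain. The copy itself had 40 to 109 counts per mouse and was not called (log2 fold change -0.40, adjusted p = 0.19, edgeR). The other subunit, mt-Co2, is as fully copied and had 7.62 ± 0.513 CPM in the young and 7.13 ± 1.71 CPM in the old animals (log2 fold change -0.08, adjusted p = 0.74, edgeR).

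Complex V, the ATP synthase, has 2 mitochondrial subunits of the membrane part, mt-Atp6 and mt-Atp8, whose genes overlap by 43 bases in different reading frames. Both lie inside the copied stretch, and neither was called. For mt-Atp6 the log2 fold change was -0.19 (4.84 ± 0.399 CPM in the young and 4.25 ± 0.581 CPM in the old animals). For mt-Atp8 it was -0.34 (2.23 ± 0.365 and 1.76 ± 0.289 CPM).

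**Figure D3:**
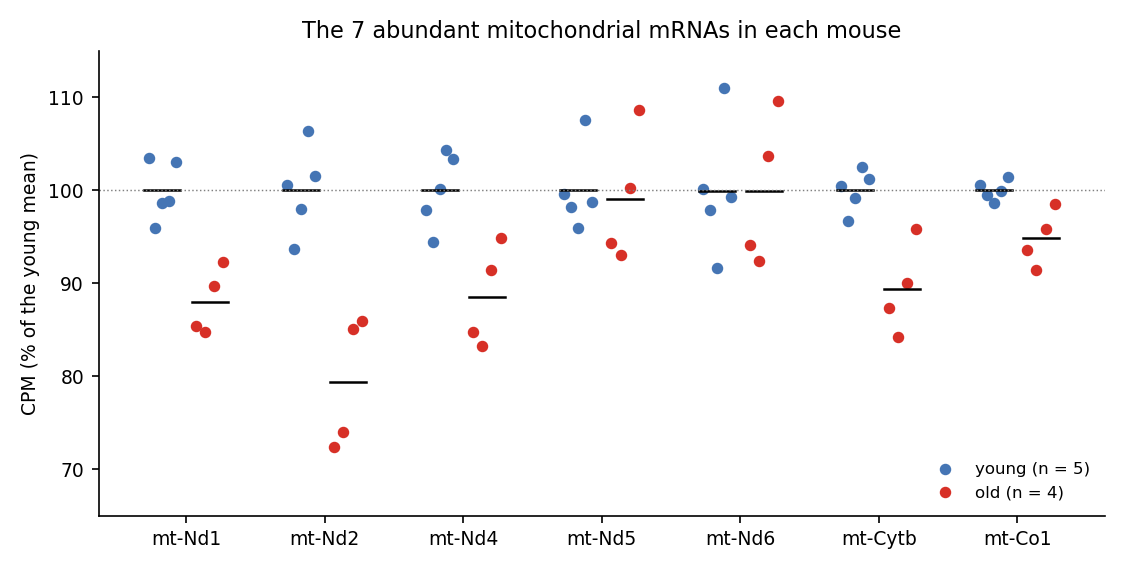
Level of the 7 abundant mitochondrial mRNAs in each mouse, as percent of the gene's mean CPM in the young mice (y axis, not from 0). Points are mice, blue for the 5 young and red for the 4 old, and black bars are means. For mt-Nd2 all old mice lie well below all young mice, while for mt-Nd5 and mt-Nd6 the ages overlap. At mt-Nd6, reads of the opposite strand cannot be told apart.

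The share of each of the 7 abundant mRNAs in the mitochondrial counts of a library does not depend on scaling between libraries. Of the mitochondrial counts, mt-Nd2 took 9.84% ± 0.265 (SD, n = 5) in young and 8.51% ± 0.413 (SD, n = 4) in old mice, with no overlap. The share of mt-Nd5 was 10.8% ± 0.341 and 11.6% ± 0.271, again with no overlap and in the other direction. For mt-Cytb it was 17.6% ± 0.110 and 17.2% ± 0.210, lower in old mice with no overlap. The ages overlapped for the other 4, with 36.7% ± 0.611 and 38.0% ± 0.691 for mt-Co1, 13.7% ± 0.345 and 13.1% ± 0.127 for mt-Nd1, 7.21% ± 0.188 and 6.97% ± 0.0943 for mt-Nd4, and 3.33% ± 0.182 and 3.63% ± 0.118 for mt-Nd6. For each of these shares a larger share of one gene makes that of the others smaller. No test was run on them.

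Ratios between pairs of genes were taken inside each library. For mt-Cytb to mt-Co1, a gene far from the promoter and one nearer to it on the same strand, the log2 ratio was -1.06, -1.10, -1.05, -1.02 and -1.06 in the young mice and -1.16, -1.18, -1.15 and -1.10 in the old mice. Old mouse 5 stood just above young mouse 2, so the ages overlapped by this pair, and the mean difference was -0.09. A two-sided exact permutation test gave p = 0.0238, or 0.0476 adjusted over the 2 ratios tested. The smallest p that this design allows is 0.00794. The adjusted p was 0.0714 without old mouse 1, 3 or 4, and 0.0357, the smallest that 5 against 3 mice allow, without old mouse 5. Without a young mouse, 4 against 4 mice cannot give an adjusted p below 0.0571 beside a second ratio that is not called, so those fits do not bear on the call. The mean difference stayed between -0.10 and -0.076 whichever mouse was left out. For mt-Nd6 to mt-Nd5, neighbours on opposite strands, the mean log2 ratio was -1.69 in young and -1.68 in old mice (two-sided exact permutation test, p = 0.571, adjusted 0.571). Since reads of the opposite strand cannot be told apart at mt-Nd6, this ratio compares 2 places and not the transcripts of the 2 strands.

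After the levels had been seen, mt-Nd2 was set against 2 abundant genes that were not called, so these ratios are given without a test. The log2 ratio of mt-Nd2 to mt-Nd5 was -0.12, -0.20, -0.10, -0.15 and -0.09 in young and -0.51, -0.46, -0.37 and -0.47 in old mice. The ages did not overlap. Linear means were 0.914 mt-Nd2 counts per mt-Nd5 count in young and 0.731 in old mice. Against mt-Co1 they were 0.268 and 0.224.

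Among the 19 tRNA genes tested, edgeR called 0 in the main fit. An unadjusted p under 0.05 was found for 7 of them, 6 lower in old mice, beside 26% of all genes in either direction and 12.4% lower. DESeq2's Wald test called 1, mt-Tm. The median log2 fold change was -0.15, with 13 genes below 0 and 6 above. Total counts over the 9 mice ran from 103 (mt-Tt) to 8125 (mt-Tp), and standard errors from 0.315 (mt-Tt) to 0.046 (mt-Tp). The gene furthest from 0 was mt-Ts2, a serine tRNA that lacks the D arm in mammals and lies between mt-Th and mt-Tl2. It is printed whole (chrM:11613-11671, plus strand), as is the gene furthest above 0 among those with an unadjusted p under 0.05, mt-Tc for cysteine (chrM:5192-5257, minus strand).
mt-Ts2: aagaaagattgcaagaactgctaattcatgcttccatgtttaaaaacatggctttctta
mt-Tc: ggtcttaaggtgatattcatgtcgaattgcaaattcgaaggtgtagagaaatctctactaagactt

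For mt-Ts2 the level was 1.05, 0.830, 0.893, 1.26 and 1.24 CPM in the young and 0.691, 0.776, 0.438 and 0.528 CPM in the old animals. The ages did not overlap, but the values rest on 8 to 26 counts per mouse. Its log2 fold change was -0.81 ± 0.25 (SE) at an adjusted p of 0.056 (edgeR). It was called lower by edgeR without young mouse 2 and by limma on TPM. For mt-Tc the young mice had 9.77, 9.79, 10.4, 11.6 and 13.3 CPM and the old mice 13.7, 12.4, 12.6 and 13.2 CPM. Young mouse 5 lay within the old range. The log2 fold change was 0.24 ± 0.094 (SE) at an adjusted p of 0.12 (edgeR).

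Neighbouring tRNA genes were also read by their place. The tRNA genes mt-Ti, mt-Tq and mt-Tm, which lie between mt-Nd1 and mt-Nd2, had log2 fold changes of -0.39, -0.45 and -0.40 (adjusted p of 0.16, 0.092 and 0.061, edgeR). In the cluster mt-Tw, mt-Ta, mt-Tn, mt-Tc and mt-Ty between mt-Nd2 and mt-Co1 they were 0.06, 0.09, 0.14, 0.24 and -0.21. In the main fit edgeR called none of these 8. With every counted gene kept, or with replicate number as a block, edgeR called mt-Tq and mt-Tm lower. It called mt-Tm lower without young mouse 2 and with the share of ribosomal RNA reads as a covariate. It called mt-Tc higher without young mouse 5 and mt-Tn higher without old mouse 3. DESeq2's Wald test called mt-Tm, and limma on TPM called mt-Ti, mt-Tq and mt-Tm. Between mt-Nd4 and mt-Nd5, mt-Th, mt-Ts2 and mt-Tl2 had -0.51, -0.81 and -0.37. For mt-Tl2 the old mice, at 3.17 to 3.74 CPM, all lay below the young mice, at 3.92 to 5.07 CPM (adjusted p = 0.083, edgeR).

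The remaining tRNA genes are given by their log2 fold change. Near the start of the heavy-strand transcript it was -0.002 for mt-Tf, 0.02 for mt-Tv and -0.02 for mt-Tl1. Inside the copied stretch it was -0.36 for mt-Tg and 0.30 for mt-Tr. Toward the end it was -0.15 for mt-Te, -0.26 for mt-Tt and -0.07 for mt-Tp, the tRNA gene with the most counts (8125 over the 9 mice). By annotated strand, the 12 tRNA genes of the plus strand had a median of -0.31 and the 7 of the minus strand a median of -0.07. As for mt-Nd6, reads from the opposite strand cannot be told apart here, so these are medians by place and not of each strand's transcript.

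**Figure D4:**
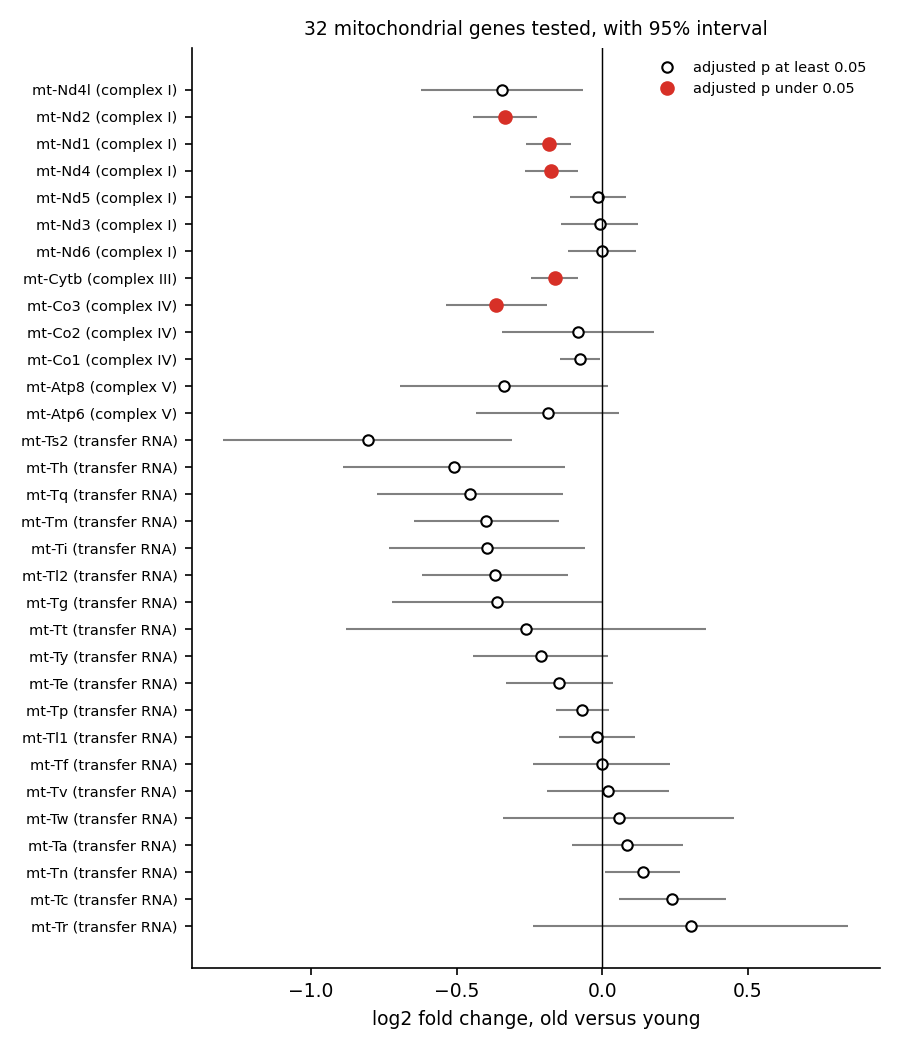
Log2 fold change, old versus young (x axis), of the 32 mitochondrial genes tested, grouped by respiratory complex and tRNA. Points are estimates from edgeR and lines their 95% intervals, a normal approximation from the SE. These can leave out 0 where the test's p is above 0.05, as for mt-Tn (unadjusted p = 0.0514, edgeR). Filled red points have an adjusted p under 0.05, and all 5 of them lie left of 0, between -0.36 and -0.16.

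The nuclear pseudogenes gave few counts, though for some the mitochondrial gene they copy gave about as few. Per mouse, Gm10925 had 84 to 171 counts beside 63 to 101 for mt-Atp6, and Gm28661 had 95 to 171 beside 82 to 175 for mt-Co2. Lower were Gm28437, with 40 to 109 beside 98 to 168 for mt-Co3, and Gm28439, with 49 to 94 beside at least 28380 for mt-Nd4. Which copy a placed read came from was not tested. Among the 9 listed copies that are in the table, 7 were tested with edgeR and 0 called, with 0 at an unadjusted p under 0.05 (0 called by DESeq2). The copies Gm10925 of mt-Atp6, Gm28661 of mt-Co2 and Gm28439 of mt-Nd4 had at most 171 counts in a mouse and log2 fold changes of -0.09, -0.01 and -0.05. Those of mt-Co1, Gm29216 and Gm13340, had -0.11 and 0.19, and Gm13341 of mt-Co2 had -0.22. In young mouse 4, Gm28438 (a copy of mt-Nd3) had 78 counts beside 4 to 14 in the other mice. Gm10222, a copy of mt-Nd4l found by its sequence, had 69 counts in the same mouse beside 12 to 28 in the others. Its log2 fold change was -0.75 ± 0.33 (SE) at an unadjusted p of 0.040 and an adjusted p of 0.17 (edgeR), and -0.34 without young mouse 4. The copy of mt-Nd2, Gm13339, had 2 to 6 counts in any mouse.

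The nuclear partners of these genes were read from the same fit. Lists of nuclear genes for the 5 complexes held 78 genes that were tested, and 7 fell (8.97%, beside 4.83% of all genes) and 0 rose, with a median log2 fold change of -0.05. Complex I had 2 of 36 lower, a share near that of all genes, Ndufs8 (-0.16, adjusted p = 0.017, edgeR) and Ndufc1 (-0.20, adjusted p = 0.027, edgeR), an iron-sulfur subunit and a small accessory subunit. Complex III had 1 of 9, Uqcr11 (-0.18), a small subunit. Complex V had 4 of 17, led by Atp5g1 (-0.20), which encodes the c-ring subunit, Atp5j2 (-0.17) and Atp5f1 (-0.13), a subunit of the membrane part and one of the outer stalk. Complexes II (4 genes) and IV (12 genes) had 0 called, and 0 and 3 genes with an unadjusted p under 0.05 (0 and 0 called by DESeq2). The largest of these falls was seen in Atp5g1, with 111, 120, 122, 110 and 110 CPM in the young and 104, 94.2, 101 and 99.1 CPM in the old animals, and the ages did not overlap. Atp5g1 and Atp5j2 kept their calls without any 1 mouse. Ndufs8 lost its call without old mouse 5 (adjusted p = 0.0501, edgeR), Uqcr11 without young mouse 5 or old mouse 4 (at most 0.055), Ndufc1 without any mouse but young 3 and 4 and old 3 (at most 0.080) and Atp5f1 without any but young 2 and old 4 (at most 0.109).

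Of the genes that transcribe mitochondrial DNA edgeR called 0 of 10, with 0 at an unadjusted p under 0.05 (0 called by DESeq2). The RNA polymerase Polrmt had 35.2 ± 2.88 CPM in the young and 38.5 ± 2.75 CPM in the old animals (log2 fold change 0.13, adjusted p = 0.23, edgeR). The packaging and initiation factor Tfam had 29.2 ± 2.09 and 30.2 ± 1.37 CPM (0.05). For the initiation factor Tfb2m the log2 fold change was -0.08, and for the elongation factor Tefm 0.01. The termination factor family had -0.15 (Mterf1a), 0.06 (Mterf1b), -0.11 (Mterf2), 0.01 (Mterf3) and -0.02 (Mterf4). Mterf1a and Mterf1b are near-identical copies, so their values are uncertain.

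Of 30 genes that process, stabilise or degrade mitochondrial RNA, 1 fell, beside 4.83% of all genes. The 1 that fell was Lrpprc, which binds mitochondrial mRNAs and protects them together with Slirp. It had 78.7, 80.1, 81.6, 82.7 and 86.2 CPM in the young and 73.1, 74.1, 73.4 and 77.5 CPM in the old animals. The ages did not overlap, and the log2 fold change was -0.14 ± 0.038 (SE) at an adjusted p of 0.035 (edgeR). The call was lost, at an adjusted p of up to 0.097, without any mouse but young 1, young 2 and old 5. Its partner Slirp had 18.4 ± 1.72 CPM in the young and 15.95 ± 1.21 CPM in the old animals (-0.20, adjusted p = 0.11, edgeR).

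Upkeep of the DNA itself was covered by 13 genes, of which 1 fell. This was Sucla2, a subunit of succinyl-CoA ligase that is tied to the supply of nucleotides for mitochondrial DNA (log2 fold change -0.17, adjusted p = 0.012, edgeR). The DNA polymerase Polg had 67.7 ± 2.50 CPM in the young and 74.3 ± 4.002 CPM in the old animals (0.13, adjusted p = 0.072, edgeR), and the helicase Twnk had -0.03. Among 78 proteins of the mitochondrial ribosome 2 fell, Mrps14 (-0.22) and Mrpl46 (-0.24), and the median was -0.07. Without any 1 mouse Sucla2 kept its call (adjusted p at most 0.040, edgeR), whereas Mrps14 lost it without young mouse 5, old mouse 1 or old mouse 3 (at most 0.061) and Mrpl46 without any mouse but young 1 and 2 and old 3 (at most 0.093). Over all nuclear lists, 11 of 209 genes fell and 0 rose, with 45 at an unadjusted p under 0.05 and a median of -0.06. The 11 are 5.26% of the lists, near the 4.83% of all genes that fell. The 45 are 21.5%, beside 26% of all genes, while those of the 45 that were lower in old mice are 19.1% of the lists, beside 12.4% of all genes. DESeq2's Wald test called 12 of them. Leaving out each mouse, chosen after the data were seen, gave 4 (without young mouse 5) to 12 called, with 5 without old mouse 1 and 7 without young mouse 3, old mouse 3 or old mouse 5.

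**Figure D5:**
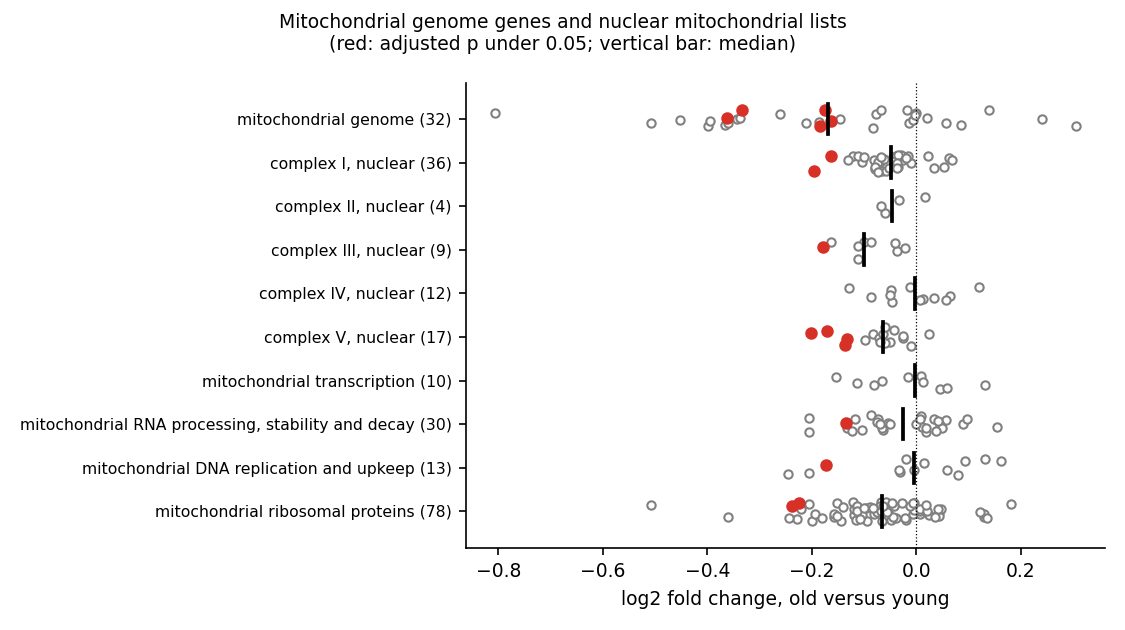
Log2 fold change, old versus young (x axis), of the 32 mitochondrial genes and of each nuclear list (number of genes tested in brackets). Points are genes, filled red where the adjusted p is under 0.05, and vertical bars are medians. The bar of the mitochondrial genome stands at -0.17, those of the nuclear lists between -0.10 and 0.

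Markers of brain regions and of other cell types were measured beside these results. The tissue label held, with neuron markers (Snap25, Syt1, Map2 and Rbfox3) summing to 4465 ± 170 CPM in the young and 4385 ± 117 CPM in the old animals, and liver markers below 1.2 CPM in every mouse. Of the 4 neuron markers 1, Map2, fell (log2 fold change -0.14), beside 4.83% of all genes. Snap25 and Rbfox3 had -0.04 and -0.02, and Syt1 had 0.09. The 4 cerebellum markers summed to 546, 386, 541, 490 and 523 CPM in the young and 421, 234, 437 and 300 CPM in the old animals. Of these 4, 1 fell, Car8, beside 4.83% of all genes. Young mouse 2, which had the lowest mitochondrial share of its age, was also the lowest young mouse here, and old mouse 3, the lowest of all in mitochondrial share, was lowest here as well. Old mouse 5, the second lowest here, had the highest mitochondrial share of its age. The most abundant of them was Car8, a Purkinje cell gene, at 184 CPM over all mice, and no cerebellum marker was at 0 in all mice.

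Olfactory bulb markers, with Cdhr1 the most abundant at 18.8 CPM and Tbx21 at 0 counts in young mouse 1, summed to 14.95, 59.2, 17.9, 15.1 and 17.7 CPM in the young and 32.4, 45.1, 12.8 and 126 CPM in the old animals. Young mouse 2 and old mouse 5 were the highest of their ages. Of the 4 markers 0 were called by edgeR, 2 had an unadjusted p under 0.05 (beside 26% of all genes) and 0 were called by DESeq2. Globin transcripts, markers of blood with Hbb-bs the most abundant at 77.7 CPM, all rose (4 of 4, beside 6.2% of all genes). They summed to 82.7 to 110 CPM in the young and 252, 121, 392 and 162 CPM in the old animals, with no overlap between the ages.

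With the mean level of the cerebellum markers as a covariate, a fit added after the data were seen, 1 mitochondrial gene was called, mt-Nd2 (log2 fold change -0.29), and mt-Nd1 had -0.16 at an adjusted p of 0.093 (edgeR). For mt-Nd4, mt-Cytb and mt-Co3 it was -0.14, -0.14 and -0.34. With the olfactory bulb markers 3 were called, mt-Nd1, mt-Nd2 and mt-Cytb, and mt-Nd4 and mt-Co3 had log2 fold changes of -0.17 and -0.32 (adjusted p of 0.064 and 0.065, edgeR). With the globins as a covariate 1 was called, again mt-Nd2 (-0.40), while the estimates of the other 4 were further from 0 than without it (-0.21 for mt-Nd1, -0.22 for mt-Nd4, -0.18 for mt-Cytb and -0.41 for mt-Co3). Since the globin levels of the ages did not overlap, this covariate and age can hardly be told apart. Cerebellum marker sums overlapped but were lower in old mice (348 ± 97.5 beside 497 ± 65.8 CPM, SD), so that covariate also partly follows age. All genes called lower were 893 without a covariate and 438, 687 and 184 with the cerebellum, olfactory bulb and globin covariates. Why fewer genes were called was not tested.

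Microglia markers had 1 of 4 higher (Tmem119), endothelial markers 2 of 4 higher (Flt1 and Pecam1), and oligodendrocyte markers 1 higher (Mbp) and 1 lower (Mog). Of all genes, 6.2% rose, 4.83% fell and 26% had an unadjusted p under 0.05 in either direction. The 4 astrocyte, 4 choroid plexus and 5 striatum markers and the 3 muscle markers tested had 0 called by edgeR, with 1, 1, 0 and 1 at an unadjusted p under 0.05 (1, 0, 0 and 0 called by DESeq2). Muscle markers summed to 28.4 CPM in old mouse 4 and to 4.37 to 8.65 CPM in the other mice.

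Among 6 nuclear-retained RNAs 1 rose, beside 6.2% of all genes. It was Neat1, with 248, 188, 206, 223 and 211 CPM in the young and 401, 416, 401 and 282 CPM in the old animals (log2 fold change 0.80, adjusted p = 0.00028, edgeR). Malat1, Kcnq1ot1 and Snhg11 had log2 fold changes of 0.21, 0.09 and 0.08, and Miat and Meg3 had -0.21 and -0.02. Of the 6, 3 had an unadjusted p under 0.05, beside 26% of all genes, and DESeq2 called 2. Genes that collect reads of ribosomal RNA, chiefly Gm42418, held 3.08% ± 1.19 of the counts in young and 3.46% ± 0.741 in old mice, from 1.47% in young mouse 3 to 4.23% in young mouse 4, and 0 of the 3 tested were called by edgeR (0 at an unadjusted p under 0.05, 0 by DESeq2). What part dissection, blood or cell make-up has in the mitochondrial values was not tested beyond these fits.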

How the data were processed

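Whole brains of 5 young and 4 old mice were analysed; each table held 1 further column, which matched no listed sample and was not used. Per the study's methods, the authors trimmed reads with Trimmomatic, aligned them to GRCm38 with STAR and used featureCounts for exonic reads that mapped to a single place. These raw counts, as deposited, are integers by gene. The authors also deposited normalized counts, a signal in which each library is divided by 1 size factor, for 17994 genes (32 of the 35 mitochondrial genes). The TPM values that the authors deposited are counts per gene length with a fixed sum per library; the lengths are not given in the sources used here. Both served as alternatives. The submitters' processing notes name DESeq2 and mm10.

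Genes were kept with filterByExpr of edgeR 4.0.16 (minimum count 10, minimum total 15), scaled with TMM and compared with its quasi-likelihood test, with Benjamini-Hochberg adjustment over 18492 genes. R 4.3.3, limma 3.58.1, DESeq2 1.42.0 and BLAST 2.17.0 were used. Symbols, positions and sequences came from GENCODE M21 (GRCm38), where 48970 gene IDs had a symbol and 345 had none. Matches to nuclear transcripts needed at least 90% identity over at least 100 bases, and were compared letter for letter in 100-base windows. CPM per kb divides by the length of the gene.

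Every mitochondrial gene with a count, every listed nuclear copy, Polrmt, Tfam, Tfb2m, Tefm, the Mterf genes, Lrpprc, Slirp, Polg and Twnk are named whatever their values; of other nuclear lists, up to 3 called genes with the lowest p in each direction are named. Other genes were named after their values were seen. The genes and lists were chosen with earlier results of these data known. Of 4 planned ratios, 2 with mt-Rnr2 were not run, and the adjustment covers the other 2.

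The fitting code was first tried on simulated data with known changes. Libraries of one age differed by more than sampling noise (chi-square per degree of freedom at least 4.05 in young and 4.84 in old mice). The biological coefficient of variation was 6.71% and the median standard error 0.084 on the log2 scale. The p-values of edgeR set the age difference against the spread between these mice, moderated over all genes. Those of the exact test come from permuting the ages of the mice. Alternatives were other scalings, filters, units and tests, each mouse left out and, added after the data were seen, marker levels or the share of rRNA-like genes as covariates.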

Additional observations from a re-analysis of the deposited data

Results flagged for a closer look

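Within a group, a mouse was looked at again where its gap to the next one took up nearly the whole range of the group. This was done for the 32 tested genes, the share of counts and the 4 ratios in both ages, 74 groups in all, of which 3 stood out, beside about 3.7 that chance would give. For mt-Tn, old mouse 3 had a log2 CPM of 4.69, the other old mice 4.93 to 4.97. For mt-Tt, old mouse 1 had a log2 CPM of -1.21, the other old mice -0.42 to -0.28, on 6 counts. For the share of counts on mitochondrial genes, young mouse 2 had 3.22%, the other young mice 3.34% to 3.37%; without it the ages did not overlap.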

How the results depend on the processing

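The 5 genes that fell were the same 5 with DESeq2 or upper-quartile factors, with library size alone, with scaling without mitochondrial genes, on the authors' normalized counts and with a minimum total of 50 counts. Over 24 alternatives mt-Nd2 was called in 22, mt-Nd1 in 20, mt-Co3 and mt-Cytb in 16 and mt-Nd4 in 15, always below 0, with the highest adjusted p at 0.35, 0.55, 0.18, 0.57 and 0.50 (edgeR, limma or DESeq2). Of 768 values of single genes, 715 kept their side of the threshold, 31 lost a call and 22 gained one, and a further 50 of the 715 changed sign without a call.

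On TPM, none of the 5 was called and 6 tRNA genes were (mt-Ti, mt-Tq, mt-Tm, mt-Th, mt-Ts2 and mt-Tl2). All genes called became 594 with log2(TPM + 1) and 600 with log2(TPM + 0.1), against 2039, and the median of the 32 genes -0.3332 and -0.3349, where all genes moved to -0.14 and -0.16. The share became 7.91% of TPM in young and 6.43% in old mice, a difference of -1.478, ranging from 6.83% to 10.1% among young mice and highest in young mouse 3, which had the lowest share of rRNA-like reads; the cause was not tested. With the cerebellum markers as a covariate all genes called were 1166 and mitochondrial genes 1. With the olfactory bulb markers the latter were 3. With the blood markers they were 457 and 1, and the median was -0.2427.

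Leaving out each mouse gave 1454 to 1942 genes called in all, 2 to 7 mitochondrial genes (2, mt-Nd1 and mt-Nd2, without old mouse 1), and a median of -0.20 to -0.090, the smallest again without old mouse 1. The mean difference between the ages in the log2 ratio of mt-Cytb to mt-Co1 stayed between -0.10 and -0.076. Its adjusted p was 0.0714 without old mouse 1, 3 or 4 (two-sided exact permutation test). Without a young mouse this adjusted p cannot go below 0.0571, so those fits say nothing about stability. Of the nuclear lists 4 to 12 genes were called, and 3 of the 11 were called whichever mouse was left out. The share differed by -0.34 to -0.22 percentage points. Without young mouse 5, mt-Tc was called higher, and without old mouse 3, mt-Tn. Without young mouse 2, mt-Tm and mt-Ts2 were called lower.

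Replicate numbers did not pair the mice (correlation of same-numbered deviations 0.17, -0.118, 0.0884 and -0.0243). With a replicate block, 6 mitochondrial genes and 1687 in all were called; mt-Co3 lost its call (-0.37, adjusted p = 0.055, edgeR), mt-Tq and mt-Tm gained one, and 6 nuclear list genes were called in place of 11. The share without ribosomal RNAs was not run, since these genes are not analysed here. At 8 to 26 counts per mouse, as for mt-Ts2, depth limits what can be seen. Inside the copied stretch this limit differed by gene. There mt-Tr had 11 to 29 counts per mouse (SE 0.28) and mt-Nd3 had 372 to 611 (SE 0.068).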
